A study of Xenopus laevis with 4 samples.

Results

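The mitochondrial respiratory chain genes were followed across 4 regions of the Xenopus laevis gastrula. They were taken from the array by gene symbol alone, as the probe sets with 1 symbol that names a subunit or a closely associated protein of NADH dehydrogenase (nduf), succinate dehydrogenase (sdha to sdhd), the cytochrome bc1 complex (uqcr and cyc1), cytochrome c (cycs), cytochrome c oxidase (cox followed by a digit) or ATP synthase (atp5). This gave 77 of the 15491 probe sets that are not controls. They stand for 73 of the 7531 genes named on the array, or 59 when the L and S copies are joined. The L and S copies are the homeologous genes of this allotetraploid frog, on its long and short chromosomes. All 77 gene identifiers were found in the RefSeq gene table with an unchanged symbol, and none is encoded by mitochondrial DNA, so that the chain is seen here through its nuclear genes.

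Total RNA of explants dissected at stage 10, the onset of gastrulation, was measured on 1 array per region, and the labels name no treatment, genotype or number of embryos. The regions were the cap of the animal pole (prospective ectoderm, called the animal cap), the dorsal and the ventral marginal zone (from opposite sides of the equator) and the vegetal explant (large, yolk-rich cells). The submitters wished to compare explants so as to predict where a gene is expressed. No explant was replicated. Each difference is therefore one between single arrays and carries no error, test or p-value.

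The respiratory chain sits in the inner mitochondrial membrane. Complexes I and II pass electrons from NADH and succinate to ubiquinone, complex III passes them on to cytochrome c, and complex IV hands them to oxygen. Complexes I, III and IV pump protons, and complex V, the ATP synthase, uses the return flow of protons to make ATP. The amphibian egg supplies the embryo with a large stock of mitochondria. At the vegetal pole some of them lie in the germ plasm, the cytoplasm inherited by future germ cells.

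Marker genes followed the labels. The 10 probe sets for animal cap ectoderm genes had a summed signal of 15361 in the cap, 8258 ventrally, 2615 dorsally and 1177 vegetally. RNA of these listed genes was thus also abundant in the ventral marginal zone. All 8 of these probe sets tested between the marginal zones were 2-fold or more higher ventrally. The 11 probe sets for endoderm genes summed to 34374 vegetally, 8155 dorsally, 5939 ventrally and 194 in the cap, where none reached the filter described below. For organizer genes the sums were 21987 dorsally, 18926 vegetally, 4221 ventrally and 165 in the cap, so that organizer RNA was also abundant in the vegetal explant. Much of the vegetal and ventral sums came from frzb.S, with 9248 vegetally, 3625 ventrally and 4852 dorsally. The frzb probe sets were highest vegetally, and those of gsc, chrd.1, nodal3.1 and admp were all highest dorsally. Ventral genes summed to 6613 in the ventral and 2551 in the dorsal marginal zone, with 4866 vegetally and 2588 in the cap. Of these, ventx3.2.S was highest vegetally (1959, against 580 ventrally), and the other probe sets were highest ventrally. Much of the sums came from ventx2.1.L and ventx2.1.S, with 2164.5 and 2375 ventrally and 682 and 1512 in the cap. Mesodermal ring genes summed to 5944 dorsally, 4603 ventrally, 1709 vegetally and 427 in the cap.

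Signals are intensities scaled by array, so a value is a share of the RNA of an explant. In such samples fewer expressing cells and less RNA per cell cannot be told apart. Signals under 24.7, the 20th percentile of all values, were raised to that floor. A probe set entered a comparison when its higher signal reached 147, the median of all values, and a difference of 2-fold or more was counted. Of the 77 probe sets, 74 reached this level on at least 1 array and 70 on every array, and 3 stayed below it everywhere. Those 3 were sdhd.S (41.5 to 96.1), ndufb4.S (81.1 to 100.1) and cox4i2.L, which was the only member under the floor on any array (1.62 in the cap, 30.9 dorsally, 15.1 ventrally and 2.14 vegetally).

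Respiratory chain RNA was present in all 4 regions at much the same level. The median signal of the 77 probe sets was 576 for the cap, 590 dorsally, 633 ventrally and 658 vegetally. From the lowest to the highest of the 4 arrays, a typical member spanned 1.34-fold, the median of 74 probe sets, whereas the median over all 8851 probe sets was 1.55-fold. A span of 2-fold or more was seen in 10 of the 74 (13.5%), against 27.4% of all probe sets. The steadiest was ndufs7.S, with 595 in the cap, 594 dorsally, 571 ventrally and 583 vegetally, followed by the ATP synthase beta subunit gene atp5f1b.S, with 3696, 3882, 3703 and 3698 in that order.

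**Figure D1:**
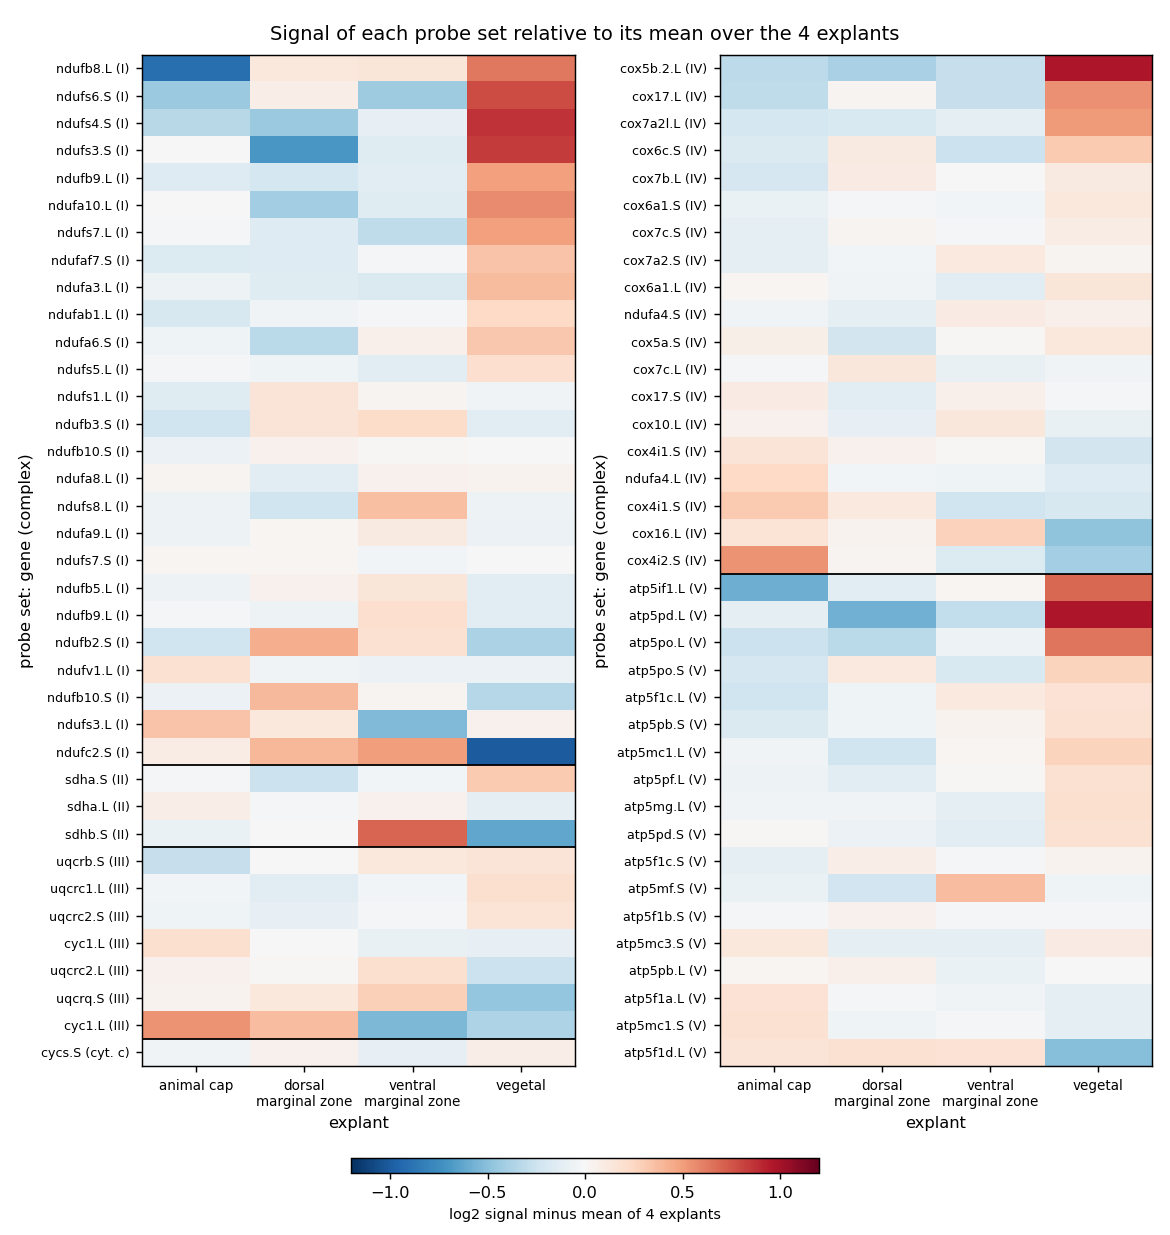
Log2 signal of each of the 74 respiratory chain probe sets that reached the filter, minus its own mean over the 4 explants (colour; columns are explants, 1 array each; rows are probe sets with the complex in parentheses). Most rows are pale, and strong colours lie mainly in the vegetal column, where cox5b.2.L and atp5pd.L are high and ndufc2.S is low.

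Differences of 2-fold or more were most frequent between the poles, that is, the animal cap and the vegetal explant. Of 73 members tested, 6 were 2-fold or more higher vegetally (8.22%) and 1 was higher in the cap (1.37%), against 11.7% and 9.14% of all 8614 probe sets tested. Among the probe sets with 1 symbol those shares were 10.7% and 7.64%. The remaining 66 lay within 2-fold, and 57 of them within 1.5-fold. Past 1.5-fold lay 11 members vegetally and 5 towards the cap, against 21.3% and 17.9% of all probe sets. The robust SD of the log2 difference was 0.46 over the members and 0.66 over all probe sets. Against the dorsal marginal zone, 4 of 74 members were 2-fold or more higher vegetally and 1 dorsally (6.76%, against 17.7% of all probe sets). Against the ventral one, 3 were higher vegetally and 2 ventrally (6.76%, against 17.1%).

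Brightness differed between the members and the rest of the array, and the spread of a difference depends on it. Of the members tested between the marginal zones, 39.7% were among the brightest 2698 probe sets, 41.1% among the middle 2698 and 19.2% among the dimmest 2698. The members were thus mainly short of dim probe sets. In the brightest band the robust SD of the vegetal minus cap difference was 0.21 for the 29 members and 0.45 for all probe sets. It was 0.43 against 0.63 for the 30 members of middle brightness and 0.70 against 0.76 for the 14 dim ones.

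The median vegetal minus cap difference of the members was 0.12 on the log2 scale, against 0.01 for all probe sets, and its sign turned with each array centred on its median (-0.10, against -0.21 for all probe sets). That centring moves the median of all 8614 probe sets by -0.21. Quantile normalisation gave 0.13 for the members and -0.03 for all probe sets, and scaling to the hybridisation controls 0.06 and -0.06. The median of the members thus lay above that of all probe sets under each scaling. As deposited, 46 of 73 members had any vegetal excess, a share of 63.0% against 50.7% of all probe sets. With centred arrays 31 of 74 did, or 41.9% against 37.1%. The shares were 62.2% and 47.9% with quantile normalisation, and 56.2% and 46.5% with scaling to the hybridisation controls. The vegetal array was the highest of the 4 for 36 of 74 members (48.6%, against 39.1% of all probe sets) and the lowest for 18 (24.3%, against 37.2%). Of the other members, 14 were highest in the cap (26% of all probe sets were), 9 dorsally (17.2%) and 15 ventrally (17.6%). The lowest array was that of the cap for 20 (25.5%), the dorsal one for 21 (20%) and the ventral one for 15 (17.3%). These counts moved with the scaling, and so did the shares of all probe sets, though little with quantile normalisation. Under it the vegetal array was highest for 37 members (50%, against 36.9%) and lowest for 19 (25.7%, against 39.4%). With centred arrays the vegetal array was highest for 28 members (37.8%, against 28.8% of all probe sets) and lowest for 32 (43.2%, against 47.6%). With scaling to the hybridisation controls it was highest for 26 (35.1%, against 30.7%) and lowest for 26 (35.1%, against 42.7%). The ventral array was then highest for 35 (47.3%, against 40.3%) and lowest for 1 (1.35%, against 5.15%).

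Other features of the vegetal explant went along with these values. All 6 germ plasm probe sets, for pgat.L, dazl.L, ddx25.L, germes.L, grip2.L and nanos1.L, reached the filter vegetally and none did in the cap, and their summed signal was 24342 vegetally, 672 ventrally, 636 dorsally and 184 in the cap. The ratio of the 3′ to the 5′ control probe set of gapdh was 5.85 on the vegetal array and 3.99 to 4.45 on the other 3, while that of beta-actin was 0.679 to 0.711 on all 4. The part of the germ plasm, the endoderm and RNA quality in the differences of the members was not tested.

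**Figure D2:**
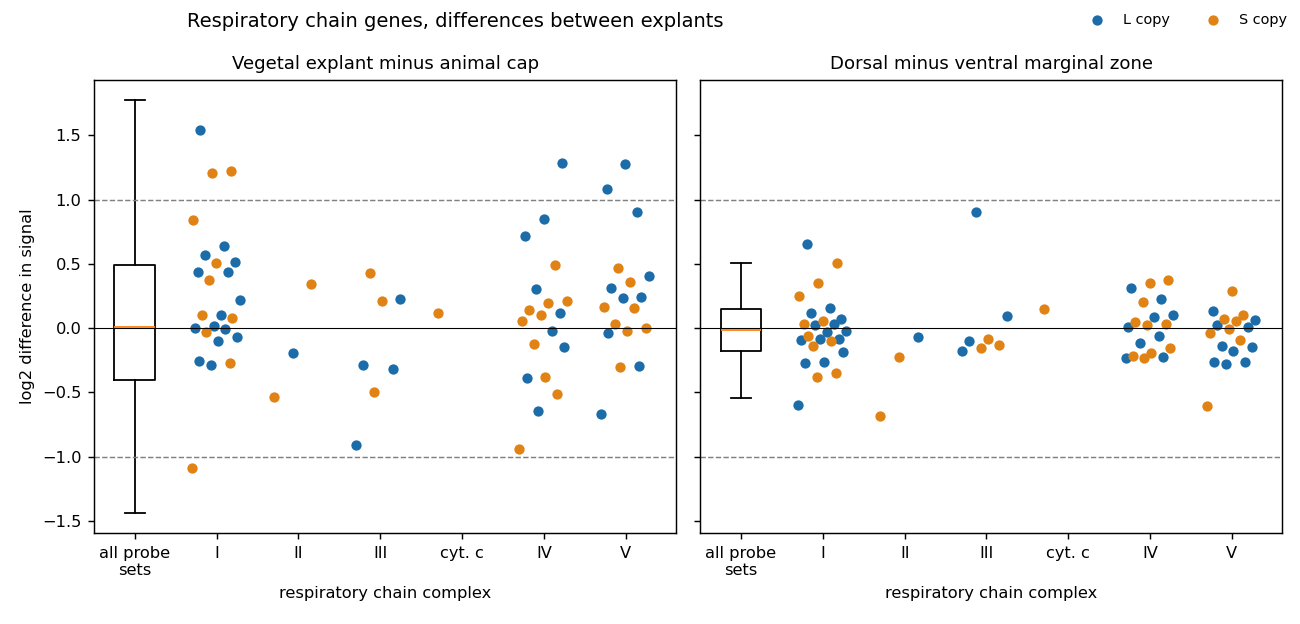
Log2 difference in signal between the vegetal explant and the animal cap (left) and between the dorsal and ventral marginal zones (right) for each respiratory chain probe set by complex (points; blue for L and orange for S copies). The box and whiskers give the quartiles and the 5th and 95th percentiles of all probe sets tested, and dashed lines mark 2-fold. On the left 7 points lie beyond the dashed lines and on the right none does.

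Complex I, the NADH dehydrogenase, takes electrons from NADH. Its 27 probe sets stand for 23 genes, and 25 of them were tested between the poles. Of these, 3 were higher vegetally (12%, against 11.7% of all probe sets) and 1 was higher in the cap (4%, against 9.14%). The median of 0.10 turned to -0.11 with centred arrays, against -0.21 for all probe sets. The accessory subunit gene ndufb8.L, of the membrane arm, had a signal of 71.0 in the cap, 145 dorsally, 147 ventrally and 206 vegetally. Its vegetal signal was 2.90-fold that of the cap, the largest ratio among the 73 members tested, with a cap signal below the filter and both marginal zones between the poles. It was also the only member lower in the cap than in each of the other 3 explants by 2-fold or more (2.04-fold), out of 74, where 2.17% of all probe sets were, and it no longer was under each of the 3 other scalings, with 16 added in place of the floor, or with a doubled filter, which its signals did not reach.

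Accessory subunits of the NADH-oxidising end of the complex came next. The signals of ndufs6.S were 215 in the cap, 310 dorsally, 218 ventrally and 502 vegetally, and those of ndufs4.S were 154, 142, 181 and 354 in that order. Both were highest vegetally, by 2.33-fold and 2.30-fold over the cap, and the dorsal signal of ndufs6.S stood above its ventral one by 1.42-fold. With centred arrays ndufs4.S came to 0.997 on the log2 scale, just under 2-fold.

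The membrane arm gene ndufc2.S ran the other way. Its signal was 1544 in the cap, 1917 dorsally, 2059 ventrally and 726 vegetally, so that it was 2.13-fold higher in the cap than vegetally. It was the only member that lay 2-fold or more below the other 3 explants in the vegetal explant, by 2.13-fold (5.34% of all probe sets did), and it was high in both marginal zones.

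Among the genes of the catalytic core, no probe set tested passed 2-fold between the poles, where 20.9% of all probe sets did. The core has too few probe sets for this to set it apart from the rest of the array. For ndufs1.L, the largest core subunit, the signals were 884 in the cap, 1086 dorsally, 998 ventrally and 947 vegetally. The core gene ndufv1.L, whose product binds NADH, had 1080, 921, 903 and 903 in the same order, and the iron-sulphur subunit gene ndufs8.L had 407, 362, 548 and 408. Among these, ndufs8.L stood out on the ventral array, 1.51-fold above the dorsal one. The core gene ndufs3 differed by copy: ndufs3.L had 462 in the cap, 399 dorsally, 253 ventrally and 379 vegetally, and ndufs3.S had 115, 70.9, 104 and 206. The L copy was thus lowest ventrally and the S copy highest vegetally, and ndufs3.S was below the filter on 3 arrays.

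The other accessory subunits filled the middle of the range. Above 1.4-fold vegetally over the cap lay ndufa10.L (1.49-fold), ndufs7.L, a core subunit (1.43-fold), and the brighter probe set of ndufb9.L (1.56-fold), whose second probe set was 0.93-fold. The assembly factor gene ndufaf7.S, which in human cells encodes a methyltransferase acting on a core subunit, had 294 in the cap, 294 dorsally, 323 ventrally and 417 vegetally. Within 1.4-fold lay ndufa3.L, ndufa6.S, ndufa8.L, ndufa9.L, ndufab1.L, ndufb3.S, ndufb5.L, ndufs5.L, ndufs7.S and both probe sets of ndufb10.S. The gene ndufb2.S reached the filter in the marginal zones alone (227 dorsally and 191 ventrally, against 142 in the cap and 129 vegetally).

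Complex II, succinate dehydrogenase, links the chain to the citrate cycle and pumps no protons. Of its 4 probe sets, 3 were tested, and none differed 2-fold between the poles, where 20.9% of all probe sets did. At that share 0 of 3 does not set the complex apart from the rest of the array. The median of complex II was -0.19 (-0.40 with centred arrays, against -0.21 for all probe sets). The iron-sulphur subunit gene sdhb.S had 481 in the cap, 512 dorsally, 824 ventrally and 331 vegetally. It was highest ventrally, by 1.61-fold over the dorsal signal, and lowest vegetally, 2.48-fold below the ventral one. The flavoprotein gene was steadier, with sdha.L at 1224 in the cap, 1149 dorsally, 1202 ventrally and 1070 vegetally, and sdha.S at 340, 288, 338 and 430. Their small vegetal minus cap differences had opposite signs, -0.19 and 0.34.

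Complex III, the cytochrome bc1 complex, had 7 probe sets and none past 2-fold between the poles as deposited, where 20.9% of all probe sets were. At that share 0 of 7 does not set the complex apart from the rest of the array. Its median of -0.29 stayed below 0 under the 3 other scalings (-0.49 with centred arrays, against -0.21 for all probe sets). Each of those scalings also lowered the median of all probe sets, so they could hardly turn this sign. The cytochrome c1 gene cyc1.L carried 2 probe sets that differed from each other. The brighter had 477 in the cap, 419 dorsally, 393 ventrally and 391 vegetally, and the dimmer 325, 290, 155 and 173. Both were highest in the cap. The dimmer one had a dorsal to ventral ratio of 1.87-fold and the brighter one of 1.07-fold, and their cap to vegetal ratios were 1.88-fold and 1.22-fold. The vegetal minus cap difference of the dimmer one passed 2-fold with centred arrays (-1.12) and with quantile normalisation (-1.05). The small subunit genes lay on either side, with uqcrq.S at 215 in the cap and 152 vegetally and uqcrb.S at 1198 and 1613. The core protein genes uqcrc1.L (464 in the cap, 543 vegetally), uqcrc2.L (628 and 504) and uqcrc2.S (303 and 351) differed by less than 1.3-fold. Cytochrome c itself, the soluble carrier between complexes III and IV, was even, with cycs.S at 2571 in the cap, 2750 dorsally, 2475 ventrally and 2796 vegetally.

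Complex IV, cytochrome c oxidase, had 20 probe sets, among them 5 for assembly factors. The 2 probe sets of ndufa4 are counted here, where work in mammals places this protein despite its complex I name. Of 19 tested, 1 passed 2-fold vegetally (5.26%, against 11.7% of all probe sets) and 0 towards the cap (against 9.14%). The median difference of complex IV, 0.11, turned to -0.10 with centred arrays, against -0.21 for all probe sets. The member past 2-fold was cox5b.2.L, for a nuclear-encoded subunit with a zinc site, with a signal of 756 in the cap, 719 dorsally, 778 ventrally and 1841 vegetally. The cap and both marginal zones were alike, and the vegetal signal was 2.37-fold above the highest of them. This made it 1 of 2 members, with atp5pd.L, that stood 2-fold or more above the other 3 explants vegetally (2.70% of 74, against 6.01% of all probe sets).

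Subunit 4 leaned the opposite way, towards the cap, with no probe set past 2-fold as deposited. In mammals cox4i1 is the general form and cox4i2 the form known from lung and from low oxygen. The cox4i2.S signal was 6633 in the cap, 4697 dorsally, 4076 ventrally and 3460 vegetally, a cap to vegetal ratio of 1.92-fold that passed 2-fold only with centred arrays (-1.15 on the log2 scale, vegetal minus cap). The 2 probe sets of cox4i1.S had 290 and 345 in the cap, 269 and 300 dorsally, 263 and 235 ventrally and 223 and 242 vegetally. On the second of them the ventral signal was the lowest. All 3 probe sets tested, of which 2 read the same gene, were thus highest in the cap, while cox4i2.L was below the filter. The second cox4i1.S probe set is of a type open to related transcripts.

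Among the other subunits, cox6c.S had 976 in the cap, 1186 dorsally, 916 ventrally and 1368 vegetally. Its dorsal to ventral ratio of 1.29-fold was the largest among the 19 tested of complex IV. The genes cox5a.S, cox6a1.L, cox6a1.S, cox7a2.S, cox7b.L, cox7c.L, cox7c.S, ndufa4.L and ndufa4.S all lay within 1.4-fold between the poles.

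Of the assembly factors of complex IV, the supercomplex factor gene cox7a2l.L was 1272 in the cap, 1295 dorsally, 1349 ventrally and 2091 vegetally. The copper chaperone gene cox17.L had 577, 730, 589 and 1040 in the same order, and cox17.S had 1165, 991, 1134 and 1068. The cox17.L and cox7a2l.L signals were thus highest vegetally, by 1.80-fold and 1.64-fold over the cap, while cox17.S was nearly level. The haem synthesis gene cox10.L was level too (410 in the cap, 370 vegetally), and cox16.L was lower vegetally (639 in the cap, 590 dorsally, 690 ventrally, 409 vegetally).

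Complex V, the ATP synthase, had 18 probe sets, and the 2 that passed 2-fold were both higher vegetally (11.1%, against 11.7% of all probe sets). The median of complex V, 0.20, was the highest among the complexes, against 0.01 for all probe sets. With centred arrays it became -0.0047, against -0.21 for all probe sets. The inhibitor gene atp5if1.L, whose product blocks ATP hydrolysis by the enzyme, had 421 in the cap, 579 dorsally, 640 ventrally and 1019 vegetally. Its signal thus formed a series from cap to vegetal explant, 2.42-fold in all, with the marginal zones in between.

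The other member past 2-fold belongs to the peripheral stalk, which holds the catalytic head in place. The subunit d gene atp5pd.L was 473 in the cap, 341 dorsally, 414 ventrally and 997 vegetally, 2.11-fold over the cap and 2.93-fold over the dorsal signal, the widest span over the 4 arrays among the 74 members, while atp5pd.S was 1.12-fold higher vegetally than in the cap. Its call was lost with centred arrays (0.87 on the log2 scale). For the oligomycin sensitivity protein, atp5po.L had 202, 194, 233 and 378 and atp5po.S had 376, 467, 381 and 518 in the same order. Both atp5po copies were highest vegetally without reaching 2-fold over the cap, and atp5po.L, at 1.87-fold, was the nearest below it on that side. The subunit b copies atp5pb.L (1599 in the cap, 1562 vegetally) and atp5pb.S (825 and 1060) and the F6 gene atp5pf.L (557 and 658) differed less.

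In the catalytic head and the rotor no probe set passed 2-fold between the poles, where 20.9% of all probe sets did. With so few probe sets this does not set them apart from the rest of the array. Beside atp5f1b.S, the alpha subunit gene atp5f1a.L had 1224 in the cap, 1076 dorsally, 1056 ventrally and 998 vegetally. The gamma subunit copies atp5f1c.L and atp5f1c.S were 1.33-fold and 1.12-fold higher vegetally than in the cap. The delta subunit gene atp5f1d.L had 1035, 1051, 1045 and 652, alike in 3 explants and 1.59-fold lower vegetally than in the cap. For the proton-carrying ring, atp5mc3.S had 5469, 4619, 4648 and 5374, and atp5mc1.L and atp5mc1.S moved apart (598 to 741 and 434 to 352 from cap to vegetal explant). Of the membrane subunit genes, atp5mg.L had 4047 in the cap and 4772 vegetally, and atp5mf.S was highest ventrally, with 424 against 279 dorsally (1.52-fold).

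**Figure D3:**
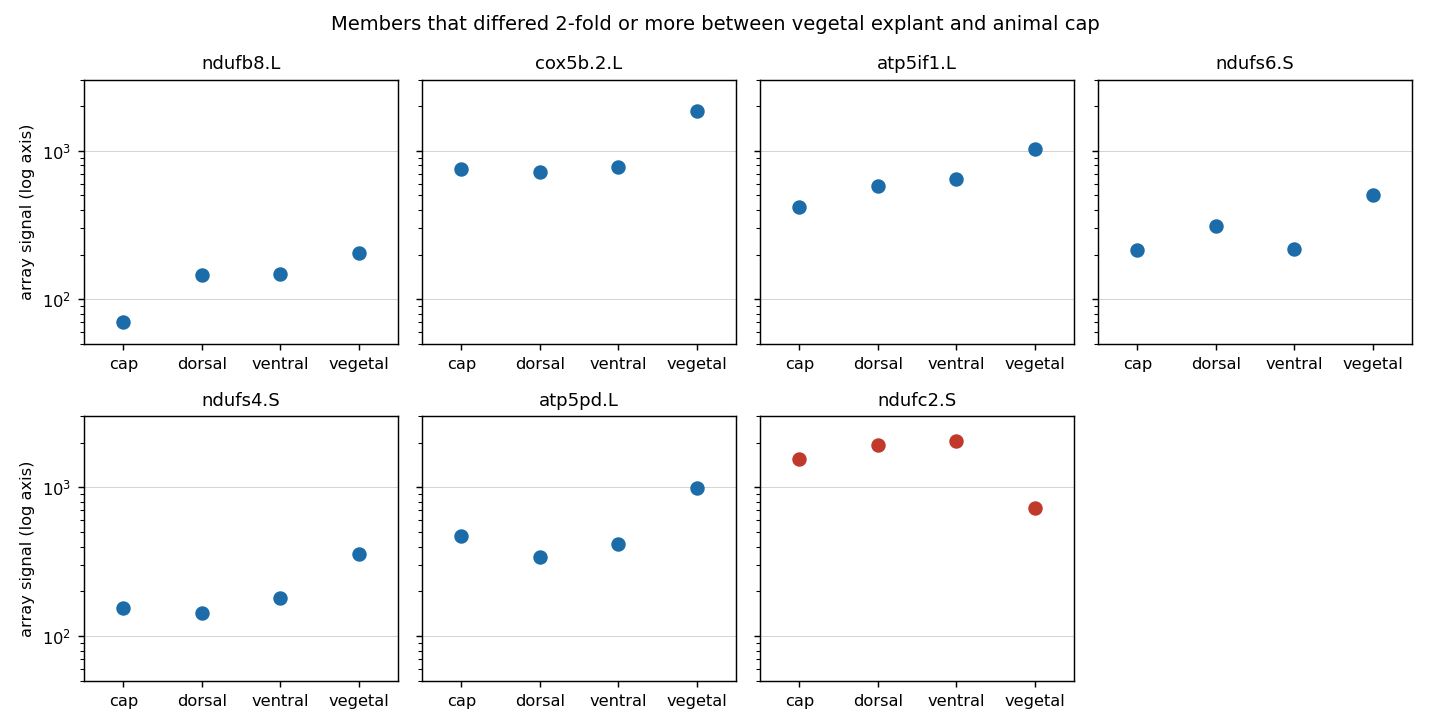
Array signal (log axis) in each explant for the 7 respiratory chain genes that differed 2-fold or more between vegetal explant and animal cap (1 point per array; blue, higher vegetally; red, higher in the cap). The 6 blue genes are highest in the vegetal explant, with both marginal zones nearer to the cap than to the vegetal explant for 5 of them, and ndufc2.S is lowest there.

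The marginal zones differed from each other in no member by 2-fold. Of 73 members tested, 0 passed 2-fold on the dorsal side and 0 on the ventral side, where 1.38% and 1.17% of all 8094 probe sets did. With shares so small, 0 of 73 does not set the members apart from the rest of the array. Any dorsal excess was seen in 33 of the 73 (45.2%), against 47.9% of all probe sets. The median difference was -0.03, against -0.01 for all probe sets. Scaling the arrays to the hybridisation controls moved these medians to -0.22 and -0.21. The robust SD of the difference was 0.19 over the members, under the 0.46 between the poles. Over all probe sets it was likewise lower between the marginal zones, 0.24 against 0.66. Past 1.5-fold lay 5 members. These were the dimmer cyc1.L probe set (1.87-fold) and ndufs3.L (1.57-fold) on the dorsal side, and sdhb.S, atp5mf.S and ndufs8.L on the ventral side. That made 2.74% and 4.11%, where 3.79% and 4.36% of all probe sets passed 1.5-fold. Of these 5, cyc1.L had a brighter probe set with a difference of 0.09 on the log2 scale.

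No member passed 2-fold as a gene of the equatorial ring, a call that was rare over the whole array. Of 74 members, 0 lay 2-fold or more above both poles in both marginal zones, where 0.384% of all probe sets did, and 0 lay below both poles, where 0.0226% did. The largest ring excess among the 74 was that of ndufb2.S, whose lower marginal zone was 1.35-fold above the higher pole, followed by ndufc2.S at 1.24-fold. No member stood 2-fold above the other 3 explants in the animal cap, where 0.723% of all probe sets did. At shares this small, 0 of 74 does not set the members apart from the rest of the array.

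Homeologous copies were compared by their differences between explants, since the levels of separate probe sets cannot be set against each other. Both copies were on the array for 14 genes, and both were tested between the poles for 13. The vegetal minus cap difference of the L and S copies differed by a median of 0.53 on the log2 scale (0.10 to 1.13), against 0.44 for 576 genes of the whole array. As deposited, the sign was shared by 4 of the 13 pairs, namely atp5po, atp5f1c, cox6a1 and atp5pd, and by 397 of the 576. Signs turn more easily where differences are small, and the median absolute difference was 0.30 over the members and 0.45 over all probe sets. Centring the arrays, a shift of -0.21, would turn a difference as small as the 0.12 of cox6a1.L. The sign counts were not repeated under the other scalings. Probe sets of 1 gene differed by a median of 0.49 (4 genes, 0.13 to 0.74), so the gap between copies was about as wide as that between probe sets of a single copy. A probe set for one copy may also read the other where their sequences are alike.

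The widest gaps between copies belonged to members already named. For ndufs3 the L copy was at -0.29 and the S copy at 0.84, for cox17 they were at 0.85 and -0.13, and for atp5pd at 1.08 and 0.17. The vegetal excess was thus on the L copy of cox17 and atp5pd and on the S copy of ndufs3. The cap signal of ndufs3.S, 115, was below the filter, so the widest gap rests on a dim probe set. Between the marginal zones 12 pairs were tested and differed by a median of 0.23, with a maximum of 0.56 at atp5po. As groups the copies were alike, with a median of 0.12 for 39 L probe sets and 0.11 for 34 S probe sets between the poles.

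**Figure D4:**
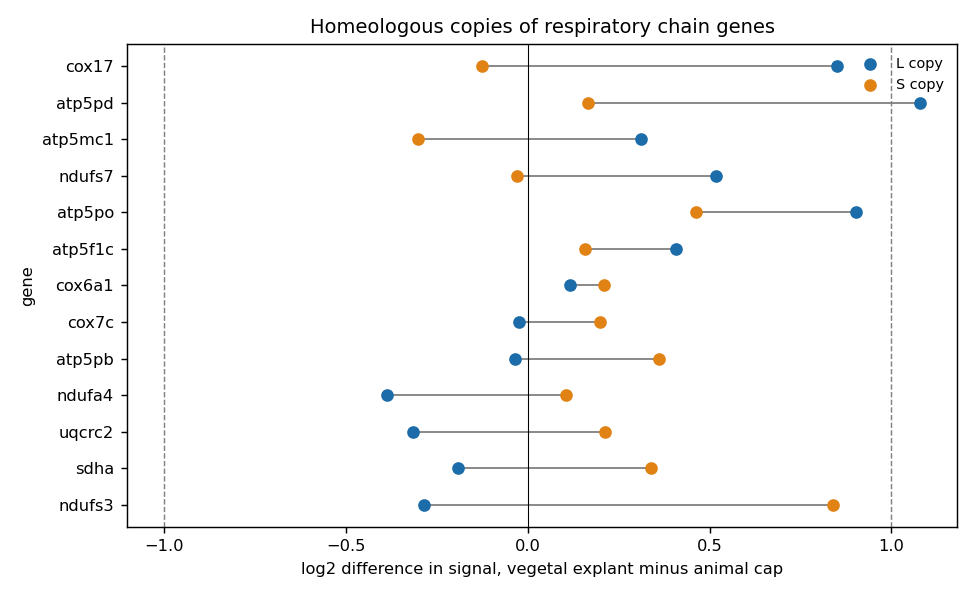
Log2 difference in signal between the vegetal explant and the animal cap for the L copy (blue) and the S copy (orange) of the 13 genes with both copies tested, ordered by the gap between them. The copies of ndufs3 and cox17 lie on opposite sides of 0, 1.13 and 0.98 apart. The cap signal of ndufs3.S was below the filter.

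Genes that build or serve the chain were read from lists outside the members. Of 20 tested probe sets for other assembly factors, 1 was 2-fold or more higher vegetally (5%, against 11.7% of all probe sets) and 2 in the cap (10%, against 9.14%). Their median of 0.20 became -0.0061 with centred arrays, against -0.21 for all probe sets. The cytochrome c oxidase assembly gene coa5.L had 209 in the cap, 211 dorsally, 264 ventrally and 916 vegetally, and the other 3 explants were alike. In the cap direction lay lrpprc.L, for a protein that stabilises mitochondrial messenger RNA (177 in the cap, 123 dorsally, 138 ventrally, 66.8 vegetally), and tmem126a.L, for a complex I assembly protein (6478, 5835, 5773 and 3224). For tmem126a.L this held on 1 of 3 probe sets, and the others differed by -0.04 and -0.26. The cytochrome haem lyase gene hccs.L was 1.71-fold higher vegetally than in the cap.

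Regulators of mitochondrial DNA and of nuclear respiratory genes lay within 2-fold, all 11 tested, where 20.9% of all probe sets passed it. At that share 0 of 11 does not set the regulators apart from the rest of the array. Their median was 0.0074. That median was below 0 under the 3 other scalings, each of which also lowered the median of all probe sets. The mitochondrial DNA packaging gene tfam.L had 1359 in the cap, 1352 dorsally, 1589 ventrally and 967 vegetally, and nrf1.S, for a transcription factor of respiratory chain genes, had 640, 644, 524 and 824. Of these, tfam.L was lowest and nrf1.S highest in the vegetal explant.

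Carriers and porins move metabolites, phosphate and protons across the mitochondrial membranes. Of 12 tested probe sets, 1 differed 2-fold or more, towards the cap (8.33%, against 9.14% of all probe sets). Any vegetal excess was seen in 2 (16.7%, against 50.7%), and the median was -0.46, against 0.01 for all probe sets. It was -0.67 with centred arrays, against -0.21. The 3 other scalings left it below 0, but each of them also lowered the median of all probe sets. The porin gene vdac3.L had 1616 in the cap, 1104 dorsally, 952 ventrally and 556 vegetally, and vdac2.S had 766, 616, 662 and 428. The phosphate carrier gene slc25a3.L, which brings in a substrate of ATP synthase, had 3370 in the cap and 2748 vegetally on its brighter probe set and 232 and 118 on the other. The 2 probe sets of vdac1.S did not match, with cap and vegetal signals of 598 and 327 on one and 803 and 809 on the other.

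**Figure D5:**
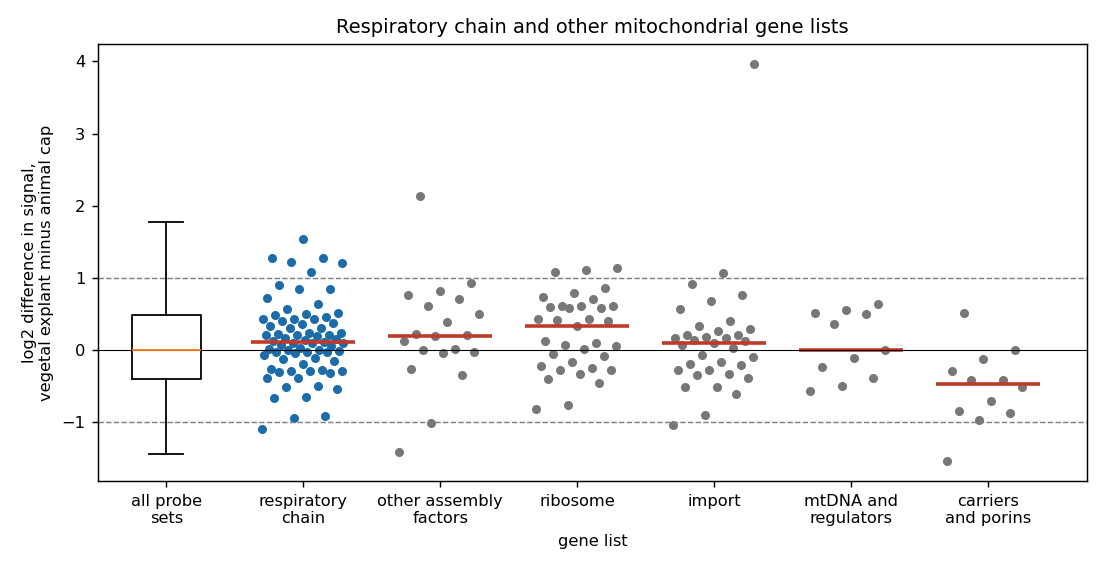
Log2 difference in signal between the vegetal explant and the animal cap for the respiratory chain (blue) and 5 other mitochondrial gene lists (grey; 1 point per probe set tested, red bars at the medians). The box and whiskers give the quartiles and the 5th and 95th percentiles of all probe sets tested, and dashed lines mark 2-fold. The median of carriers and porins, -0.46, is the lowest, and that of the mitochondrial ribosome, 0.34, is the highest.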

How the data were processed

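Per the labels' protocols, total RNA (100 ng for each explant) was amplified with the Ovation system and labelled with biotin, and each of 4 explants had 1 array. The authors' deposited values are linear intensity signals, whose summarisation software is not given in the sources used here. With 2% of the probe sets trimmed at each end, the mean was 500.1 on every array, so the deposited values carry a scaling of whole arrays. Array medians ran from 137 to 158. Signals were used as deposited, floored and put on the log2 scale, and the 120 control probe sets were left out. The number of arrays limits the precision.

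Probe sets were named from the platform annotation table, in which 9304 had 1 symbol, 195 several and 5992 none. A further 5 probe sets with several symbols named respiratory chain genes and were left out. Members, gene lists and thresholds were chosen with earlier results of these data known. Named genes were all members past 2-fold, the members of each complex with the largest differences between the poles (3) and between the marginal zones (2), and their other copies. Other members and list genes were named to account for them after their values were seen. The calling steps were tested on simulated arrays. Python 3.11.15, numpy 2.4.6, pandas 2.3.3 and matplotlib 3.10.9 were used. Alternatives were 3 other scalings, another floor or none, 2 other filters, gene level, a 1.5-fold threshold, subunits alone and the removal of probe sets open to related transcripts. A planned count of promoter motifs was not made, since promoter sequences were not used here.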

Additional observations from a re-analysis of the deposited data

How the results depend on the processing

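Each explant had 1 array, so no value has a replicate error and array error was not measured. No paired analysis was possible because each group holds 1 array, and for the same reason no array could be left out. Across 11 alternatives, 133 of 160 counts stayed within 1.5 times the reported one and 91 of 107 medians within 0.1 on the log2 scale. The cause of the other changes was not tested. A reported count of 0 that stayed 0 was taken as kept, and the other floor left all counts of the members unchanged. The tally is therefore no measure of precision. With arrays centred on their medians, members higher in the cap went from 1 to 3 (4.05%, against 12.8% of all probe sets). The median vegetal minus cap difference went from 0.12 to -0.10. Members above the other 3 explants vegetally went from 2 to 1 (1.35%, against 4.57%), with the median from 0.093 to -0.056. Members below the other 3 in the cap went from 1 (ndufb8.L) to 0 (against 1.94%), with the median from -0.061 to 0.066. In the other lists that centring gave medians of -0.0061 for assembly factors, -0.26 for regulators, -0.67 for carriers, -0.10 for import and 0.13 for the ribosome. Past 2-fold lay 4 of 12 carrier and 1 of 35 ribosomal probe sets, all towards the cap, where 12.8% of all probe sets lay. Quantile normalisation gave 2 members higher in the cap (2.70%, against 10.5% of all probe sets) and 0 below the other 3 there. It gave medians of 0.085 for assembly factors and -0.14 for regulators, and 2 of 12 carrier probe sets 2-fold or more higher in the cap. Scaling to hybridisation controls gave a dorsal minus ventral median of -0.22 (-0.21 for all probe sets), 0 members below the other 3 in the cap and a regulator median of -0.11. It left 2 of 12 carrier probe sets 2-fold or more higher in the cap, against 10.0% of all probe sets. Adding 16 in place of the floor, or doubling the filter, also left 0 below the other 3 in the cap, and the latter gave a ribosome median of 0.12. Without a filter, 2 members were higher in the cap, with sdhd.S added (2.60%, against 6.81% of all probe sets), and the regulator median was 0.19. Then 5 of 25 assembly, 4 of 17 carrier and 5 of 39 import probe sets passed 2-fold either way. Of all probe sets 10.9% did so vegetally and 6.81% towards the cap. The ribosome median was 0.21 at gene level and 0.23 without probe sets open to related transcripts. At 1.5-fold, 11 of 73 members were higher vegetally and 5 in the cap (21.3% and 17.9% of all probe sets were). On the dorsal side lay 2 and on the ventral side 3 (3.79% and 4.36% of all probe sets). Of 74 members, 9 lay above and 2 below the other 3 vegetally (1102 and 1001 of all 8851 probe sets). Between the poles, 8 of 20 assembly, 1 of 11 regulator, 5 of 12 carrier, 8 of 35 import and 13 of 35 ribosome probe sets passed 1.5-fold either way.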

Other observations

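Protein import and translation inside mitochondria were covered by lists that the report gives as points alone. Of 35 tested probe sets for import, 2 were 2-fold or more higher vegetally (11.7% of all probe sets were) and 1 was higher in the cap (9.14% were). Their median of 0.10 became -0.10 with centred arrays, against -0.21 for all probe sets. The gene timm8b.S, for a small chaperone of the intermembrane space, had a signal of 92.8 in the cap, 97.9 dorsally, 143 ventrally and 1449 vegetally. Its vegetal signal was 15.6-fold that of the cap, far above any member of the respiratory chain and above the rest of the import list, while timm8b.L had 618, 657, 810 and 490 in the same order. The disulphide relay gene gfer.L had 178 in the cap, 238 dorsally, 158 ventrally and 371 vegetally. The presequence peptidase gene pmpca.S ran the other way, with 1111, 1036, 1024 and 541, alike in 3 explants and lowest vegetally, and its second probe set had 315, 384, 367 and 221. The inner membrane translocase gene timm23.L had 959 in the cap and 513 vegetally, and the chaperonin gene hspd1.S had 367 and 695 on one probe set and 722 and 836 on another.

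Of 35 tested probe sets for proteins of the mitochondrial ribosome, 3 passed 2-fold, all higher vegetally (8.57%, against 11.7% of all probe sets), and with centred arrays 0 did so vegetally and 1 towards the cap. Their median of 0.34 stayed above 0 under the 4 scalings (0.13 with centred arrays). The large subunit gene mrpl39.L had 202 in the cap, 292 dorsally, 207 ventrally and 446 vegetally. The small subunit gene mrps15.L had 199, 171, 192 and 429 in the same order, and mrpl16.S had 965, 1112, 1109 and 2048. All 3 were highest vegetally, and both marginal zones of mrps15.L and mrpl16.S lay near the cap.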
